A study of Sus scrofa with 6 samples.

Results

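The myostatin, TGF-beta and BMP signals were followed through 10 genes, *MSTN*, *FST*, *ACVR2B*, *TGFB1*, *TGFB2*, *TGFB3*, *LTBP1*, *BMP4*, *SMAD3* and *SMAD7*, which were chosen by name and found by their pig Ensembl symbols. All 10 were present among the 30476 genes of the count table. The samples were longissimus dorsi, a fast muscle of the back, taken at 6 months of age from 3 UCP1 KI and 3 WT pigs, with 1 RNA-seq library per pig. UCP1 KI pigs carry a knock-in of *UCP1*, the uncoupling protein of brown fat that pigs lack in functional form, with expression confined to adipocytes by design, and WT pigs carry no knock-in. The promoter of the knock-in, the sex of the pigs and whether they came from 1 founder were not given in the sources used here, and no identifier carried the symbol *UCP1*, so the genotype was not checked against the counts.

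Myostatin is a ligand of the TGF-beta superfamily that muscle fibres secrete and that limits muscle mass. Ligands of this family bind pairs of type II and type I serine kinase receptors, which phosphorylate SMAD proteins: the myostatin, activin and TGF-beta branch acts through SMAD2 and SMAD3, and the BMP branch through SMAD1, SMAD5 and SMAD9. Secreted proteins such as follistatin trap the ligands, latency proteins store TGF-beta in the matrix, and the inhibitory SMADs feed back on the receptors.

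Counts on genes summed to between 30220951 and 35066624 per pig. Levels are given in CPM, the counts scaled to a common library total with the TMM factors of edgeR, which were lowest in WT replicate 2 (0.781) and highest in UCP1 KI replicate 2 (1.18). The 20 most abundant genes held 56.5% of the counts of WT replicate 2 and between 39.0% and 44.8% in the other pigs. The upper limit for a gene with 0 counts, 3 counts, was equal to 0.0795 to 0.1096 CPM and covers counting error only. Each of the 10 genes had at least 21 counts in every pig and passed the filter on low counts. The muscle identity of the samples was visible in 9 fibre markers, among them *ACTA1* and *CKM*, which summed to between 64510 and 158852 CPM per pig.

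With edgeR's quasi-likelihood test, *TGFB3* was the one gene of the 10 that passed both limits, and it was lower in UCP1 KI pigs. The limits (p under 0.05 without adjustment, and a log2 fold change beyond 0.5 in size) were taken from the study, which used them with DESeq2. With DESeq2 on the same genes, *MSTN* passed them as well as *TGFB3*. By these limits edgeR's quasi-likelihood test called 8.19% of the 13402 genes tested, and 4.34% as lower, so 1 of 10 is a share near the background. In bulk tissue, fewer cells of a type and less RNA per cell cannot be told apart. In edgeR's test *MSTN* had a log2 fold change of similar size with an unadjusted p just outside the limit. The other 8 genes had log2 fold changes between -0.36 and 0.15. With Benjamini-Hochberg adjusted p values under 0.05, taken over every gene tested, edgeR called 0 of the 10 genes and 0% of all genes, while 1100 genes had an unadjusted p under 0.05 and DESeq2 on the same genes called 127 genes at an adjusted p under 0.05, none of them among the 10. For none of the 10 genes were all UCP1 KI pigs on one side of all WT pigs, where 15.3% of all genes tested showed no overlap, 7.59% higher and 7.69% lower in UCP1 KI pigs. The median log2 fold change of the 10 genes was -0.23, beside -0.02 over all genes tested, and 9 were below 0. With library size only, a scaling that raised the median of all genes by 0.25, it was 0.01 and 5 were below 0.

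**Figure D1:**
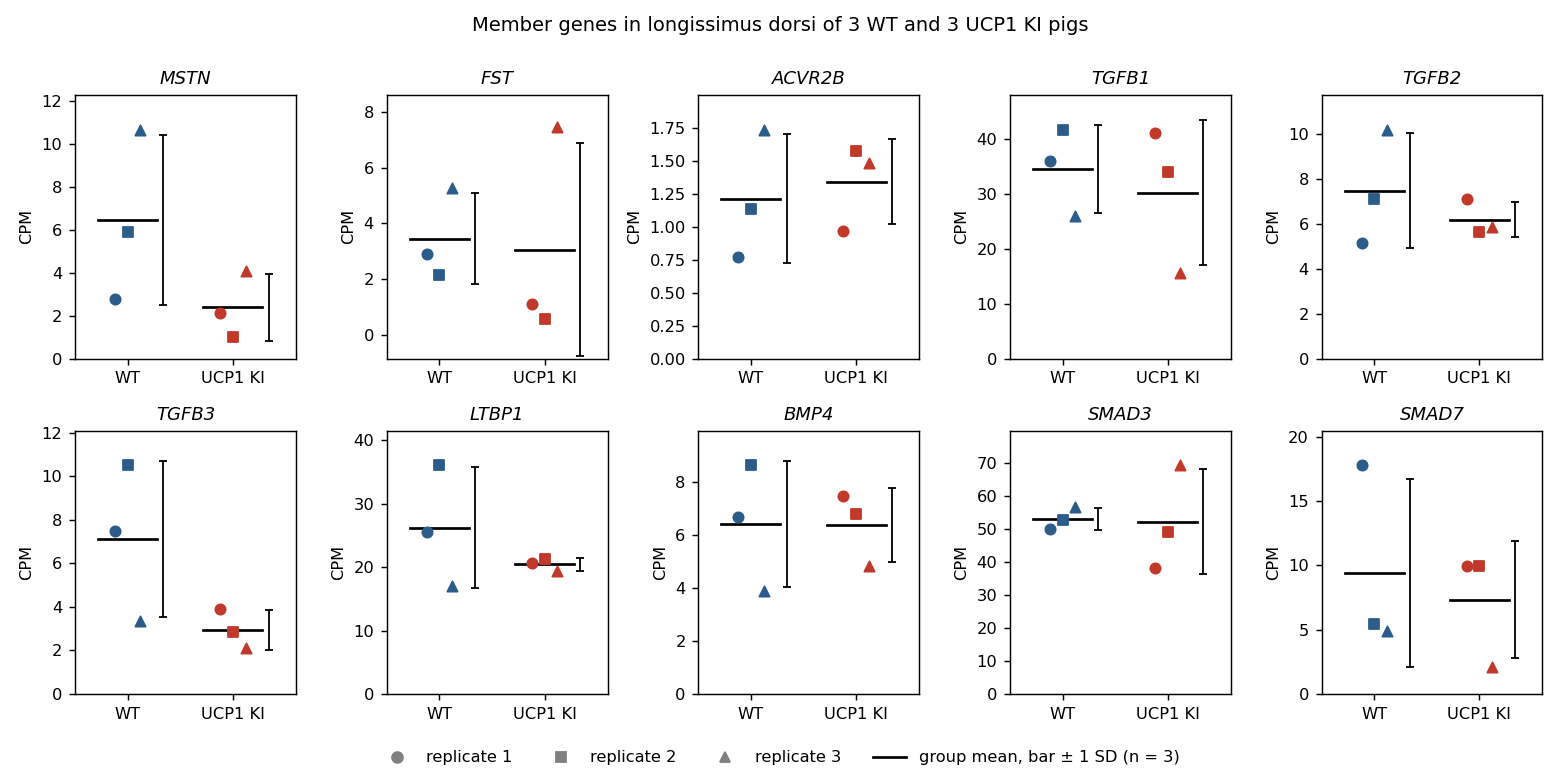
Level of each of the 10 genes in CPM (vertical axes, linear) in 3 WT and 3 UCP1 KI pigs, with symbols for the replicate numbers, a line at the group mean and a bar of 1 SD on either side. The groups overlap for all 10 genes, and *TGFB3* and *MSTN* show the widest separation of the means as a ratio.

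*MSTN* (ENSSSCG00000016047, chromosome 15, 94623526 to 94628440 in Sscrofa11.1) encodes myostatin. WT replicates 1 to 3 were at 2.78, 5.92 and 10.7 CPM, and UCP1 KI replicates 1 to 3 at 2.13, 0.982 and 4.08 CPM. A single UCP1 KI pig, replicate 3, lay above the lowest WT pig, replicate 1, and the pigs of a group differed by more than the group means did, with a ratio of the highest to the lowest pig of 3.84 for WT and 4.16 for UCP1 KI. UCP1 KI pigs averaged 2.40 ± 1.57 CPM and WT pigs 6.46 ± 3.97 CPM (SD, n = 3), and the log2 fold change was -1.43 (SE 0.63, 95% interval -2.89 to 0.04). Its unadjusted p from edgeR's quasi-likelihood test was 0.0556 and its adjusted p 0.610. *MSTN* passed both limits with DESeq2, where the unadjusted p was 0.0261 on the same genes, and in edgeR when UCP1 KI replicate 3 (-2.04) or WT replicate 1 (-1.79) was left out, and the log2 fold change was -0.85 without WT replicate 3. The annotated span of *MSTN* lies across that of *C15H2orf88*, which was not analysed here, and whether the counts used strand was not given in the sources used here.

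*FST* (ENSSSCG00000016892, chromosome 16, 32806341 to 32811382) encodes follistatin, the secreted protein that binds myostatin and activins and keeps them from their receptors. It was at 2.92, 2.15 and 5.27 CPM in WT replicates 1 to 3, and at 1.13, 0.589 and 7.47 CPM in UCP1 KI replicates 1 to 3. The highest and the lowest levels of the 6 pigs were thus both in the UCP1 KI group, 12.7-fold apart. The log2 fold change of -0.17 (SE 0.88, 95% interval -2.20 to 1.87) gave an unadjusted p of 0.853 in edgeR's test. UCP1 KI replicate 3 set this value: without that pig the log2 fold change was -1.99 and passed both limits (unadjusted p = 0.0109 from edgeR). The sign of the *FST* change also turned, to 0.13, with library size only.

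The balance between trap and ligand in a pig, taken as log2 of *FST* CPM over *MSTN* CPM, was 0.07, -1.46 and -1.02 in WT replicates 1 to 3 and -0.92, -0.74 and 0.87 in UCP1 KI replicates 1 to 3. The groups overlapped, and in each group 1 pig stood above the other 2. This ratio compares pigs with each other and not the amounts of the 2 transcripts, since CPM is not corrected for transcript length.

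*ACVR2B* (ENSSSCG00000011257, chromosome 13, 23237699 to 23276086) encodes activin receptor type IIB, the type II receptor that binds myostatin. Its levels were low in all pigs, at 0.772, 1.13 and 1.74 CPM in WT replicates 1 to 3 and 0.970, 1.57 and 1.48 CPM in UCP1 KI replicates 1 to 3. These levels rest on 28 to 56 counts per pig. The log2 fold change was 0.15 (SE 0.46, 95% interval -0.92 to 1.22, unadjusted p = 0.755 from edgeR's test). Changes anywhere in that interval could not be told from no change at this depth and spread.

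The 3 TGF-beta isoforms are secreted as latent complexes and act through SMAD2 and SMAD3. *TGFB3* (ENSSSCG00000002385, chromosome 7, 99133873 to 99162239) was at 7.50, 10.5 and 3.37 CPM in WT replicates 1 to 3, and at 3.88, 2.83 and 2.09 CPM in UCP1 KI replicates 1 to 3. WT replicates 1 and 2 were above every UCP1 KI pig, and WT replicate 3 lay within the UCP1 KI range. UCP1 KI pigs averaged 2.94 ± 0.899 CPM and WT pigs 7.13 ± 3.59 CPM (SD, n = 3). The log2 fold change of *TGFB3*, -1.28 (SE 0.46, 95% interval -2.35 to -0.21), gave an unadjusted p of 0.0245 and an adjusted p of 0.583 in edgeR's quasi-likelihood test. *TGFB3* stayed past both limits without UCP1 KI replicate 1 or WT replicate 3 and lost the call without any 1 of the other 4 pigs, with log2 fold changes between -1.62 and -0.89 over the 6 fits. The annotated span of *TGFB3* overlaps that of *IFT43*, a gene of intraflagellar transport. *IFT43* passed both limits too, averaging 8.21 ± 3.24 CPM in UCP1 KI and 14.97 ± 4.34 CPM in WT pigs (SD, n = 3), with a log2 fold change of -0.87 and an unadjusted p of 0.0495 from edgeR's test. Its part in the *TGFB3* value was not tested.

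*TGFB1* (ENSSSCG00000003017, chromosome 6, 49332169 to 49348642) was at 35.9, 41.7 and 26.0 CPM in WT replicates 1 to 3, and at 41.2, 33.97 and 15.5 CPM in UCP1 KI replicates 1 to 3. Its log2 fold change of -0.19 (SE 0.38, 95% interval -1.08 to 0.69, unadjusted p = 0.626 from edgeR's test) was smaller than the spread between pigs, and was 0.12 without UCP1 KI replicate 3 and 0.04 with library size only. The annotated span of *TGFB1* overlaps that of *LOC110261354*, a protein-coding gene that was not analysed here. *TGFB2* (ENSSSCG00000010816, chromosome 10, 8306136 to 8435307) was at 5.13, 7.09 and 10.2 CPM in WT replicates 1 to 3, and at 7.08, 5.61 and 5.85 CPM in UCP1 KI replicates 1 to 3. The UCP1 KI pigs lay close together and inside the WT range, and the log2 fold change was -0.27 (SE 0.32, 95% interval -1.003 to 0.46, unadjusted p = 0.415 from edgeR's test).

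*LTBP1* (ENSSSCG00000008510, chromosome 3, 106300748 to 106724538) encodes a latent TGF-beta binding protein that tethers the latent ligand to matrix fibrils. It was the steadiest of the 10 genes among UCP1 KI pigs, at 20.7, 21.3 and 19.4 CPM in replicates 1 to 3, and varied more among WT pigs, at 25.6, 36.1 and 17.1 CPM. The coefficient of variation was 4.84% among the former and 36.4% among the latter. Its log2 fold change of -0.36 (SE 0.30, 95% interval -1.05 to 0.34) gave an unadjusted p of 0.265 in edgeR's test. All UCP1 KI pigs lay between WT replicate 3 and WT replicate 1. Its annotated span overlaps those of 3 long non-coding RNAs.

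*BMP4* (ENSSSCG00000005045, chromosome 1, 183415989 to 183422888) encodes a BMP ligand of mesenchymal cells. WT replicates 1 to 3 were at 6.70, 8.66 and 3.90 CPM and UCP1 KI replicates 1 to 3 at 7.50, 6.82 and 4.82 CPM, with means of 6.42 ± 2.39 and 6.38 ± 1.39 CPM (SD, n = 3). The log2 fold change of -0.01 (SE 0.36, unadjusted p = 0.980 from edgeR's test) had a 95% interval of -0.84 to 0.82.

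*SMAD3* (ENSSSCG00000004952, chromosome 1, 164998457 to 165124455) encodes the receptor-activated SMAD of the myostatin and TGF-beta branch. It was nearly level among WT pigs, at 49.95, 52.8 and 56.7 CPM in replicates 1 to 3, whereas UCP1 KI replicates 1 to 3 were at 38.1, 49.05 and 69.5 CPM and spanned the WT range on both sides. The group means were close, 52.2 ± 15.9 (UCP1 KI) and 53.2 ± 3.39 CPM (WT; SD, n = 3), and the log2 fold change was -0.03 (SE 0.27, 95% interval -0.65 to 0.60, unadjusted p = 0.927 from edgeR's test). Its annotated span overlaps that of *AAGAB*. *SMAD7* (ENSSSCG00000004507, chromosome 1, 98512800 to 98543924) encodes the inhibitory SMAD that TGF-beta itself induces. It was at 17.8, 5.48 and 4.91 CPM in WT replicates 1 to 3 and at 9.93, 9.98 and 2.07 CPM in UCP1 KI replicates 1 to 3. The highest pig was WT replicate 1 and the lowest UCP1 KI replicate 3. Its log2 fold change of -0.36 (SE 0.69, 95% interval -1.97 to 1.25, unadjusted p = 0.616 from edgeR's test) turned to 0.50 without WT replicate 1.

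**Figure D2:**
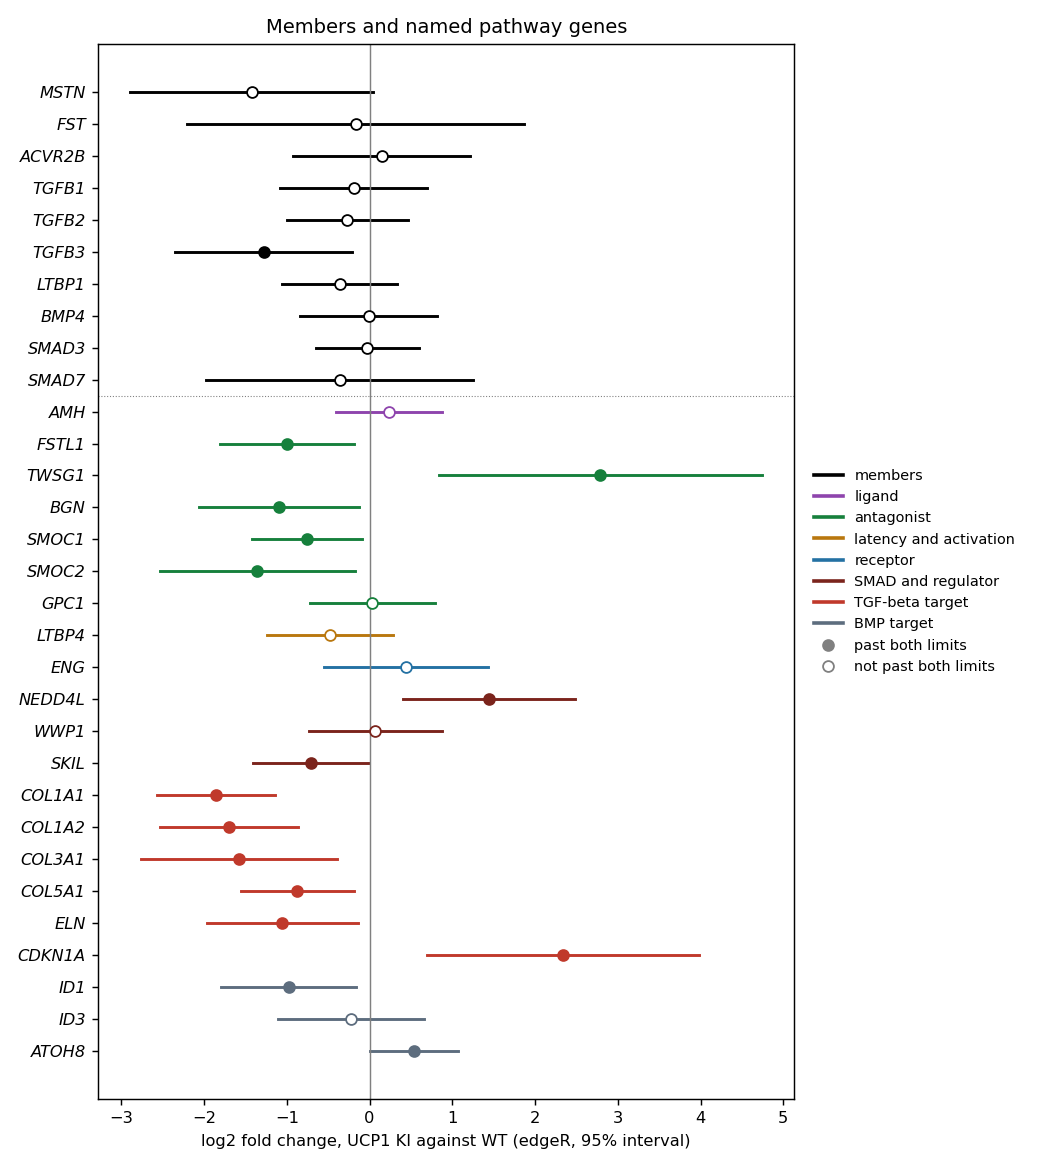
Log2 fold change of UCP1 KI against WT pigs (horizontal axis) with 95% intervals from edgeR for the 10 genes, above the dotted line, and for the named genes of the pathway lists, below it, with filled symbols for genes past both limits. The interval of *TGFB3* lies below 0, that of *MSTN* reaches 0.04, and those of the type I and III collagen genes lie below 0 and further from it.

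The spread among pigs had a shared form. For 8 of the 10 genes, the pig numbered 3 was the highest of its group in both groups or the lowest in both. *MSTN*, *FST* and *SMAD3* were highest in WT replicate 3 and UCP1 KI replicate 3, and *TGFB1*, *TGFB3*, *LTBP1*, *BMP4* and *SMAD7* were lowest in them. *ACVR2B* and *TGFB2* were highest in WT replicate 3 alone. Among all genes tested, 34.4% had the pig numbered 3 at the same end of both groups, against 20.9% for the pigs numbered 1 and 21.9% for those numbered 2. This pattern was chosen after the values were seen, and the labels do not say that a number links a UCP1 KI pig to a WT pig.

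Some of the marker lists moved with it. The summed level of 8 endothelial markers was lowest in the pigs numbered 3, at 334 CPM in WT replicate 3, against 520.3 and 631 CPM in the other WT pigs, and at 365 CPM in UCP1 KI replicate 3, against 608 and 654 CPM. The 8 markers of smooth muscle and pericytes were also lowest there, at 451 CPM against 827 and 955 CPM in WT pigs and at 347 CPM against 495 and 496 CPM in UCP1 KI pigs, and the 5 Schwann cell markers found were highest, at 54.4 and 41.9 CPM against 19.6 to 28.2 CPM. The 5 satellite cell markers were highest there too, at 46.5 CPM against 39.9 and 29.8 CPM in WT pigs and at 45.9 CPM against 42.6 and 44.4 CPM in UCP1 KI pigs. For the fibre, fibroblast, leukocyte, adipocyte and red blood cell sums, the pig numbered 3 was not at the same end of both groups. The part of these cells in the levels of the 10 genes was not tested. With both pigs numbered 3 left out of edgeR's quasi-likelihood fit, a choice made after the values were seen, *TGFB3* (-1.42) and *FST* (-1.56) passed both limits and *MSTN* (-1.48) had an unadjusted p of 0.0552.

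**Figure D3:**
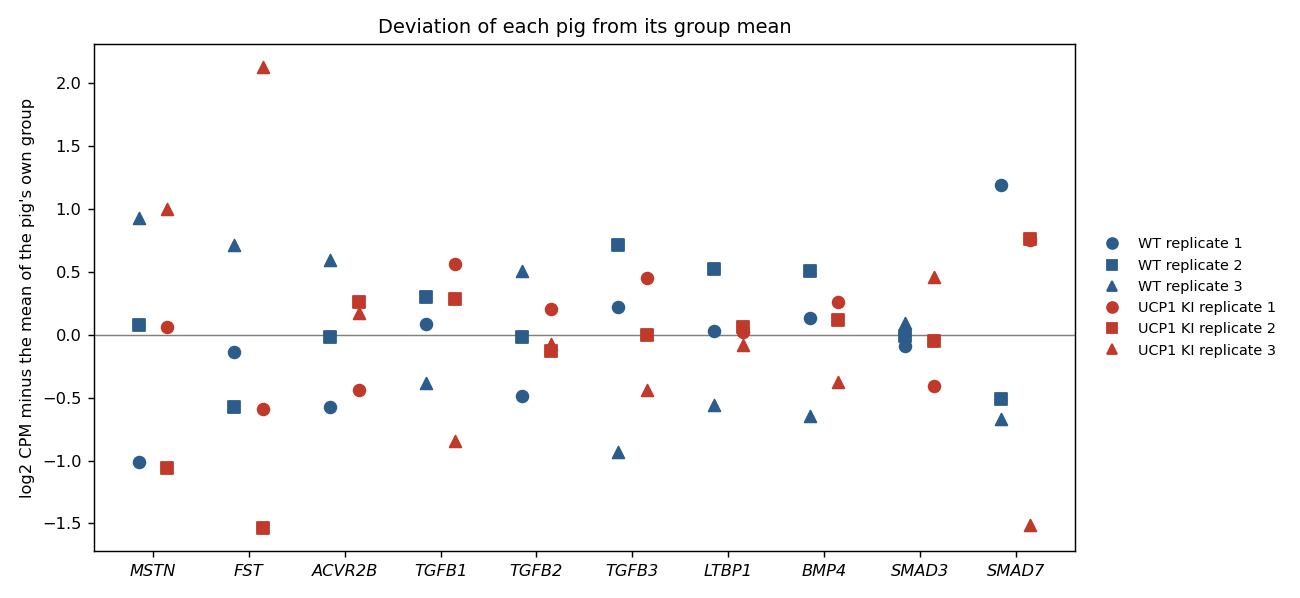
Deviation of log2 CPM of each pig from the mean of its own group (vertical axis) for the 10 genes, with colours for the groups and symbols for the replicate numbers. The triangles of replicate 3 lie at the top for *MSTN*, *FST* and *SMAD3* and at the bottom for *TGFB1*, *TGFB3*, *LTBP1*, *BMP4* and *SMAD7* in both groups.

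The rest of the pathway was read from 7 lists of other genes, of which 130 of 135 symbols were found and 106 passed the filter on low counts. Of these 106 genes, 15 passed both limits, 4 higher and 11 lower in UCP1 KI pigs, where the background is 8.19% of all genes tested, 3.84% higher and 4.34% lower. With library size only, 10 passed, 7 higher and 3 lower, and 7 of the 15 were among them. The median log2 fold change of the 106 genes was -0.15. After adjustment over all genes, 0 passed with edgeR, and *COL1A1*, *COL1A2*, *CDKN1A* and *TWSG1* did with DESeq2 on the same genes.

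Of the other ligands of the family, 0 of 9 tested genes passed both limits, with log2 fold changes between -1.78 for *INHBA*, an activin subunit, and 0.85 for *INHBB*, another. Their 14 untested relatives had few counts or none, and *NODAL*, *BMP3*, *BMP10*, *BMP15*, *GDF2* and *GDF7* had 0 counts in all pigs. *GDF11*, the ligand closest in sequence to myostatin, was at 2.18, 0.329 and 0.100 CPM in WT replicates 1 to 3 and at 1.71, 1.54 and 0 CPM in UCP1 KI replicates 1 to 3. *AMH*, best known from the gonads, had the highest CPM of the ligand list, at 31.7 ± 7.24 (UCP1 KI) and 26.9 ± 5.97 CPM (WT; SD, n = 3), and its annotated span lies 192 bases from that of *JSRP1*, a muscle gene measured at 190 ± 29.1 and 242 ± 57.4 CPM (SD, n = 3).

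Among the secreted antagonists and matrix proteins that bind these ligands, 1 of 16 tested genes was higher and 4 were lower in UCP1 KI pigs, with a median of -0.26, and with library size only the same count was 1 higher and 0 lower. *FSTL1*, a secreted glycoprotein related to follistatin, was at 97.0, 69.9 and 47.1 CPM in WT replicates 1 to 3 and at 48.5, 31.3 and 27.3 CPM in UCP1 KI replicates 1 to 3, a log2 fold change of -0.999 (SE 0.35). *BGN*, the proteoglycan biglycan, fell by 1.09 on the log2 scale, and the BMP-modulating matrix proteins *SMOC1* and *SMOC2* by 0.75 and 1.36. Every UCP1 KI pig was below every WT pig for *SMOC1* and *SMOC2*, and the groups overlapped for *FSTL1* and *BGN*. Unadjusted p values of these 4 genes from edgeR's test lay between 0.0215 and 0.0318, and the smallest adjusted p was 0.583. Of the 6 fits with a pig left out, *SMOC2* passed both limits in 5, *FSTL1* in 3, and *BGN* and *SMOC1* in 2 each.

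*TWSG1*, twisted gastrulation, which binds BMPs together with chordin, had the largest rise of the lists and an uneven one. UCP1 KI replicates 1 and 2 were at 14.7 and 23.3 CPM, while UCP1 KI replicate 3 at 1.40 CPM was below all WT pigs, which were at 2.18, 1.79 and 1.70 CPM. The log2 fold change of 2.79 (SE 0.84, unadjusted p = 0.0113 and adjusted p = 0.583 from edgeR's test) passed in all 6 fits that leave out a pig. *GPC1*, a glypican with the highest CPM of this list over all 6 pigs though not over the WT pigs, was at 108 ± 30.3 (UCP1 KI) and 106 ± 30.6 CPM (WT; SD, n = 3).

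Of 16 tested genes of latency and activation, 0 passed both limits, with a median log2 fold change of -0.24. *LTBP4*, the relative of *LTBP1* with the highest CPM of that list over all 6 pigs though not over the WT pigs, was at 117 ± 33.0 (UCP1 KI) and 163 ± 47.4 CPM (WT; SD, n = 3), a log2 fold change of -0.48 (SE 0.33). None of 16 tested receptors and coreceptors passed, with a median of 0.02 and a range of -0.57 for *BMPR1A* to 0.93 for *BMPR1B*, both type I receptors for BMPs. *ENG*, the endothelial coreceptor endoglin, was at 235, 169 and 129 CPM in WT replicates 1 to 3 and at 292, 318 and 114 CPM in UCP1 KI replicates 1 to 3, lowest in both pigs numbered 3.

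Of 22 tested SMADs and their regulators, *NEDD4L* was higher and *SKIL* lower in UCP1 KI pigs. *NEDD4L*, a ubiquitin ligase that can target activated SMAD2 and SMAD3, was steady among WT pigs at 10.2, 10.1 and 9.84 CPM and above them in each UCP1 KI pig, at 14.0, 19.8 and 48.2 CPM. The *NEDD4L* log2 fold change of 1.44 (SE 0.45) gave an unadjusted p of 0.0131 in edgeR's test and was between 0.75 and 1.76 when 1 pig was dropped, past both limits each time. *SKIL*, a SMAD corepressor that TGF-beta induces, was at 31.6, 17.9 and 17.6 CPM in WT replicates 1 to 3 and 15.1, 14.4 and 11.6 CPM in UCP1 KI replicates 1 to 3, a log2 fold change of -0.71 (SE 0.30, unadjusted p = 0.0487 from edgeR's test), and passed in 2 of the 6 fits with a pig left out. *WWP1*, the ubiquitin ligase with the highest CPM of this list, was at 111 ± 27.3 (UCP1 KI) and 106 ± 44.9 CPM (WT; SD, n = 3).

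Genes known as targets of TGF-beta held 6 of the 15 calls. Of 18 tested, 5 were lower and 1 higher in UCP1 KI pigs, with a median log2 fold change of -0.76 beside -0.02 for all genes, and with library size only 3 were lower and 1 higher, with a median of -0.47. The median was -0.35 without WT replicate 2. The 5 lower genes all encode matrix proteins, and the list was chosen with earlier results of these data known. The fibrillar collagen gene *COL1A1* was at 115, 179.6 and 101 CPM in WT replicates 1 to 3 and at 44.0, 29.4 and 35.8 CPM in UCP1 KI replicates 1 to 3, without overlap. Its log2 fold change of -1.86 (SE 0.31) gave an unadjusted p of 0.000361 and an adjusted p of 0.280 in edgeR's test, and leaving out 1 pig moved it no further than -2.01 and -1.57. *COL1A2* and *COL3A1* fell by 1.70 and 1.57 on the log2 scale, and *COL5A1* by 0.87, each without overlap between the groups. *ELN*, tropoelastin, fell by 1.05 and its groups overlapped. Of the 6 fits with a pig left out, *COL1A2* passed both limits in 6, *COL3A1* in 5, *COL5A1* in 3 and *ELN* in 2. Fibroblasts are a main source of these 5 matrix proteins in muscle.

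*CDKN1A*, the cell cycle inhibitor p21, was the 1 target of 4 with a log2 fold change above 0 that passed the limits. It was at 59.8, 84.6 and 149 CPM in WT replicates 1 to 3 and at 162, 294 and 1026 CPM in UCP1 KI replicates 1 to 3, without overlap, and its log2 fold change of 2.33 (SE 0.71, unadjusted p = 0.0115 from edgeR's test) was between 1.22 and 2.78 when 1 pig was dropped. *CCN2*, connective tissue growth factor and a classical TGF-beta target, did not pass the limits, with a log2 fold change of -1.04 and an unadjusted p of 0.0692 from edgeR's test, although every UCP1 KI pig was below every WT pig. *CCN2* passed with DESeq2 on either set of genes, with the replicate block and without both pigs numbered 3. It passed in none of the fits that leave out a single pig, nor in edgeR with other scaling or filters. It was named after its values were seen.

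Of 9 tested BMP targets, 1 was higher and 1 lower in UCP1 KI pigs. *ID1*, an inhibitor of differentiation that BMP signals induce, was at 123, 59.6 and 59.3 CPM in WT replicates 1 to 3 and at 50.2, 36.5 and 36.2 CPM in UCP1 KI replicates 1 to 3, without overlap. Its log2 fold change of -0.98 (SE 0.35) gave an unadjusted p of 0.0240 in edgeR's test and passed in 3 of the 6 fits with a pig left out. *ATOH8*, a transcription factor induced by BMP in several cell types, was at 8.74, 9.20 and 9.74 CPM in WT replicates 1 to 3 and at 12.7, 15.4 and 12.1 CPM in UCP1 KI replicates 1 to 3, a log2 fold change of 0.54 (SE 0.23, unadjusted p = 0.0473 from edgeR's test) that passed in 1 of those 6 fits. *ID3*, with the highest mean CPM of the *ID* genes, was at 87.8 ± 36.3 (UCP1 KI) and 102 ± 25.0 CPM (WT; SD, n = 3).

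**Figure D4:**
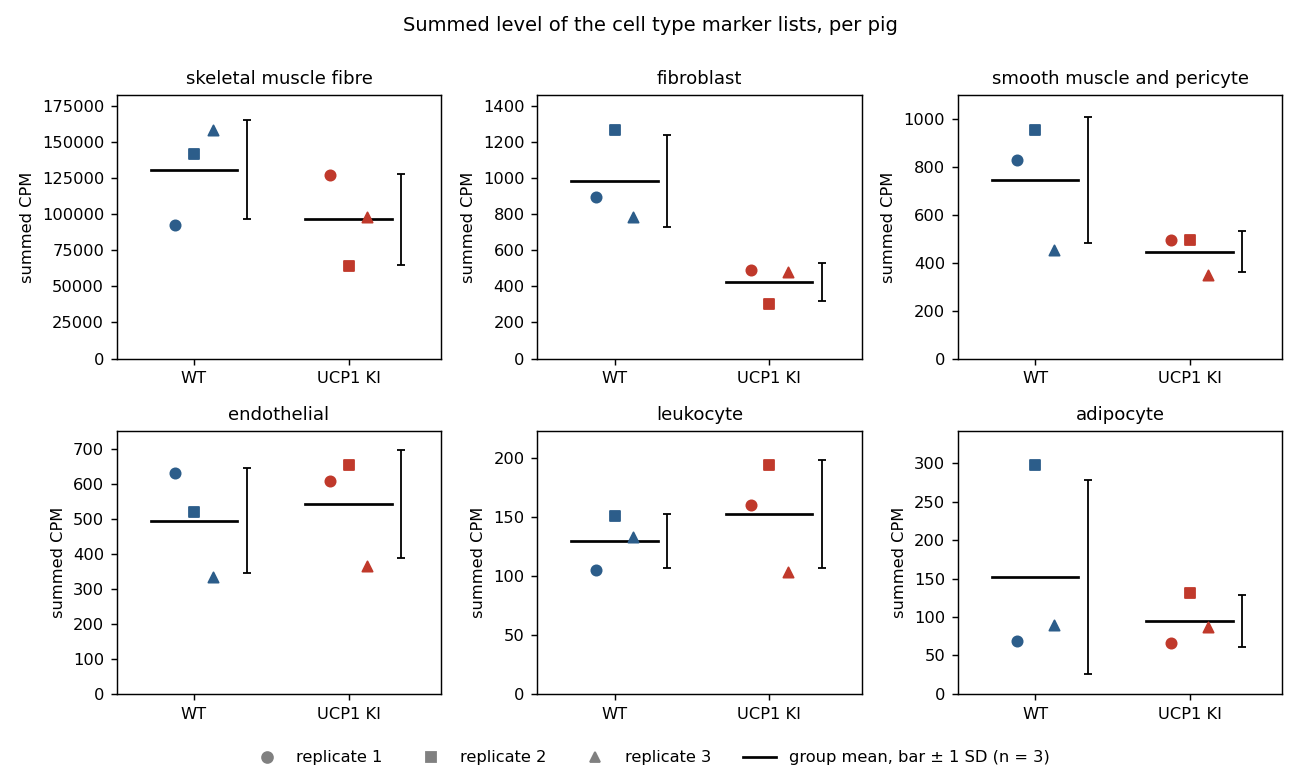
Summed CPM of 6 lists of cell type markers (vertical axes, linear) in 3 WT and 3 UCP1 KI pigs, with symbols for the replicate numbers, a line at the group mean and a bar of 1 SD on either side. The fibroblast sum, type I and III collagen genes included, lies at 305 to 489 CPM in the UCP1 KI group and at 788 to 1270.4 CPM in the WT group, and the other 5 sums overlap.

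The fibroblast markers include some of these matrix genes. Of 11 markers, all tested, 5 were lower and 0 higher in UCP1 KI pigs. For these counts and those of the marker lists below, the background is 8.19% of all genes tested, 3.84% higher and 4.34% lower. A single call in lists this short cannot be told from that share. The sum of the 11 fibroblast markers ranged from 305 to 489 CPM in UCP1 KI pigs and from 788 to 1270.4 CPM in WT pigs. The list shares *COL1A1*, *COL1A2* and *COL3A1* with the TGF-beta targets and *DCN* with the antagonists. Without the 3 collagen genes, a sum added after the values were seen, the groups overlapped, at 188, 189.6 and 189.0 CPM in UCP1 KI replicates 1 to 3 and 264, 278 and 189.2 CPM in WT replicates 1 to 3. The other 2 lower markers were *LUM* and *FAP*, with log2 fold changes of -0.57 and -0.91. *MFAP5*, *DCN* and *PI16* at -0.49, -0.39 and -0.35 did not pass, nor did *PDGFRA*, *DPT* and *FBLN1* at -0.08, 0.17 and 0.10. Without the 3 collagen genes the median of the list was -0.37. None of the 11 markers was at 0 in all pigs. Of 8 markers of smooth muscle and pericytes, 1 was lower and 0 higher, with sums of 347 to 496 CPM in UCP1 KI pigs and 451 to 955 CPM in WT pigs. All 8 log2 fold changes were below 0, with a median of -0.84, and *ACTA2* and *TAGLN* are also on the TGF-beta target list. Of 8 endothelial markers, *TEK* was higher (1.20 on the log2 scale). Of 8 leukocyte markers, *CD3E* (1.84) and *ITGAM* (1.52) were higher and 0 lower, with a median log2 fold change of 0.65. The sum of the 8 was 103 to 194 CPM in UCP1 KI pigs and 106 to 151 CPM in WT pigs. The groups overlapped for *CD3E* and *ITGAM*, with UCP1 KI replicate 3 (1.03 and 3.87 CPM) below WT replicate 1 (1.27 and 4.99 CPM). The 7 adipocyte markers, of the cells in which the knock-in is meant to be expressed, summed to 66.2 to 132 CPM in UCP1 KI pigs. Their sum was 69.0 to 297 CPM in WT pigs, highest in WT replicate 2. Of the 5 tested, *LIPE* was higher (1.12). *ADIPOQ*, *PLIN1*, *FABP4* and *CIDEC* were at -1.26, -1.13, -1.22 and -0.80 and did not pass, and the list median was -1.13. The 4 red blood cell markers found summed to 11.6 to 76.2 CPM in UCP1 KI pigs and 105 to 180.4 CPM in WT pigs. The part of these cells in the values of *TGFB3* and of the matrix genes was not tested.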

How the data were processed

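RNA-seq of longissimus dorsi from 3 UCP1 KI and 3 WT pigs was analysed, 1 library per pig. The submitters' processing notes name FastQC 0.11.2, Trimmomatic 0.36, HISAT2 2.0, bedtools 2.26.0, StringTie 1.3.3b, DESeq2 1.12.4 and the build Sscrofa11.1. The values the authors deposited are whole-number read counts for each Ensembl gene, not normalized. The counting program and annotation release were not given in the sources used here. Of the per-sample columns, 0 were left unused.

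Counts were tested in R 4.3.3 with edgeR 4.0.16: filterByExpr, TMM factors, condition as the only term and the two-sided quasi-likelihood F test, with Benjamini-Hochberg adjustment over all 13402 genes. Both limits of a call, p under 0.05 before adjustment and a log2 fold change of more than 0.5 in size, are those of the study. The study used them with DESeq2, and the main test here is edgeR's. Standard errors are the size of the log2 fold change over the square root of F. The p values set the group difference against the spread between these pigs, which the fit estimates in part across genes. Ensembl pig names gave the symbols, and RefSeq for Sscrofa11.1 the gene spans, matched by symbol. All 10 genes and every pathway gene past both limits were named, with the gene of highest mean CPM in each list. *INHBA*, *INHBB*, *GDF11*, *BMPR1A*, *BMPR1B*, *CCN2* and the genes with overlapping or neighbouring spans were named after their values were seen. The 10 genes and all lists were chosen with earlier results of these data known. Alternatives included DESeq2 1.42.0, other scaling and filters, a replicate block and leaving out each pig. The procedure was tested on simulated data. Protein and promoter sequences were not used here.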

Additional observations from a re-analysis of the deposited data

How the results depend on the processing

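Among the 10 genes, 1 passed both limits, and 2 passed with DESeq2 on the same genes or on all genes with any count, with edgeR on all genes with any count, and with a block for the replicate number, the added gene being *MSTN* each time. Leaving out both pigs numbered 3, chosen after the values were seen, also gave 2, *FST* and *TGFB3*. With a pig left out in turn, the number ranged from 0 (without UCP1 KI replicate 2 or WT replicate 2) to 2 (without UCP1 KI replicate 3), that of the pathway lists from 8 (without UCP1 KI replicate 2) to 19, with 9 without WT replicate 1, and that of all genes from 678 (without UCP1 KI replicate 2) to 1541, with 718 without WT replicate 2, beside 1097. The split of all calls was 515 higher and 582 lower, and 929 and 195 with library size only.

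With library size only, the log2 fold change turned sign for *FST* (0.13), *TGFB1* (0.038), *BMP4* (0.25), *SMAD3* (0.26) and *ID3* (0.0047). *BMP4* was at 0.013 on all genes with any count and 0.040 with the replicate block. Without both pigs numbered 3, *TGFB2* was at 0.055 and *AMH* at -0.047. With a pig left out, the signs were not stable for *FST* (-1.99 to 0.30), *ACVR2B* (-0.10 to 0.50), *TGFB1* (-0.48 to 0.12), *TGFB2* (-0.48 to 0.021), *BMP4* (-0.26 to 0.26), *SMAD3* (-0.29 to 0.16), *SMAD7* (-0.67 to 0.50), *GPC1* (-0.19 to 0.21), *WWP1* (-0.13 to 0.48) and *ID3* (-0.42 to 0.084). Over the 10 genes and the named pathway genes, 341 values kept their direction and side of the limits, 57 no longer passed, 8 newly passed and 28 changed sign. The causes were not tested.

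The pigs share replicate numbers, and the correlation of deviations from the group means between same-numbered pigs, across genes, was 0.00, 0.09 and 0.28, so the numbers were not taken to pair them, and the pigs numbered 3 alone correlated best with their own number. With the replicate number as a block 1114 genes were called, 15 of them in the pathway lists, of which 12 were among the 15 called without it, and *MSTN* was at -1.44, *TGFB3* at -1.18 and *FST* at -0.88. Depth limits *ACVR2B*, at 28 to 56 counts, and the ligands left out by the filter.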
